A study of Mus musculus with 15 samples.

Results

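Kidney transcripts of 9 genes that bind, store or convert vitamin A were compared between mice on a normal diet, mice made ill with adenine and adenine-fed mice given asiatic acid (AA). The genes were Rbp4, Stra6, Lrat, Dhrs3, Rdh10, Rdh11, Aldh1a1, Aldh1a2 and Aldh1a3, taken as the rows of the gene table whose Ensembl identifier carried one of these symbols in GENCODE M21, the GRCm38 annotation. All 9 were found among 54532 genes. Kidneys of 15 male C57BL/6 mice, 8 weeks old when acquired and then acclimatized before grouping, were sequenced, with 5 mice in each group. The C group ate adenine-free chow. The M group received 0.25% adenine in its chow for 4 weeks, a diet that injures the tubules and is used as a model of chronic kidney disease (CKD). The AA group ate the same adenine diet and received 30 mg/kg of AA, a triterpenoid of Centella asiatica, by daily gavage for 8 weeks. The C and M groups were gavaged with the DMSO and saline vehicle, every group ate standard chow in the last 4 weeks, and kidneys were taken at week 8. No group on a normal diet with AA was sequenced, so AA vs. C holds the diet and the drug together. M vs. C asks what the diet left behind, AA vs. M what the drug added, and AA vs. C how far the treated kidneys stood from healthy ones.

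Vitamin A circulates as retinol bound to RBP4, which is filtered in the glomerulus and taken back by the proximal tubule through megalin. Inside cells retinol is either stored as retinyl ester or oxidised to retinal and then, irreversibly, to retinoic acid, the ligand of the RAR receptors. Dehydrogenases of the first step work with reductases that turn retinal back into retinol, and the enzymes of the ALDH1A family carry out the second step.

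Levels are given in FPKM as deposited, the fragments counted on a gene relative to the length of its exons and to the fragments of its library, and lists of 5 levels run from mouse 1 to mouse 5. Reads were recovered from the steps between a library's FPKM values, which leaves a factor of 2 open. Outside the mitochondrial genome they came to 6951357 to 13576588 for C, 2077628 to 7142901 for M and 2225763 to 4271190 for AA libraries. The mitochondrial share was 53.0% to 62.5% for C, 64.0% to 86.8% for M and 69.2% to 87.2% for AA libraries. M mice 1 to 3 stood apart, with 10068 to 12222 genes above 0 against 23040 and 25460 in M mice 4 and 5. C mice 1 and 3 also stood apart, with summed FPKM of 333 and 492 over 6 markers of collecting duct principal cells against 34.5 to 73.1 in the other C mice. Values without these mice are given beside the results that rest on them. Proximal tubule markers (12 genes, each above 0 in at least 1 kidney of each group) summed to 3182 to 13369 FPKM for C, 92.7 to 549 for M and 169 to 568 for AA kidneys. The sum was above 0 in every kidney and lower in every adenine-fed kidney than in any C kidney, though in M mouse 2 only 6 of the 12 markers were above 0. In such bulk tissue, fewer cells of a type and less RNA per cell cannot be told apart.

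Fold changes are differences of mean log2(FPKM + 1), which understates the change of low genes, with standard errors (SE) from limma. A gene was called when its adjusted p was at most 0.05 and its log2 fold change at least 1 in either direction. Genes were tested where 5 or more of a comparison's 10 libraries had a level above 0, and all 9 genes passed this filter in each of the 3 comparisons. The comparisons share libraries and are therefore not independent of each other.

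In AA vs. C, 2 of the 9 genes were called, both higher, the retinal dehydrogenases Aldh1a1 and Aldh1a2. Of the 21898 genes tested in that comparison, 19.8% were called and 10.2% were called as higher. In M vs. C, limma called 0 of the 9 genes, where 1.38% of 21153 genes were called, and 0 of the 9 had an adjusted p of at most 0.05 at any fold, where 1.47% of all genes had one. Of the 9, Stra6, Dhrs3 and Aldh1a2 had an unadjusted p under 0.05, as did 3493 of all genes tested, and limma voom on the recovered reads also called 0. In AA vs. M, limma called 0 of the 9 genes, where 12.8% of 19798 genes were called. Stra6 and Aldh1a1 had an unadjusted p under 0.05 there, as did 6360 of all genes tested, and voom called both. The median log2 fold change of the 9 genes was 0.26 for M vs. C, 0.17 for AA vs. M and 0.08 for AA vs. C. Over all genes tested the medians were −0.12, 0.17 and 0.09.

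**Figure D1:**
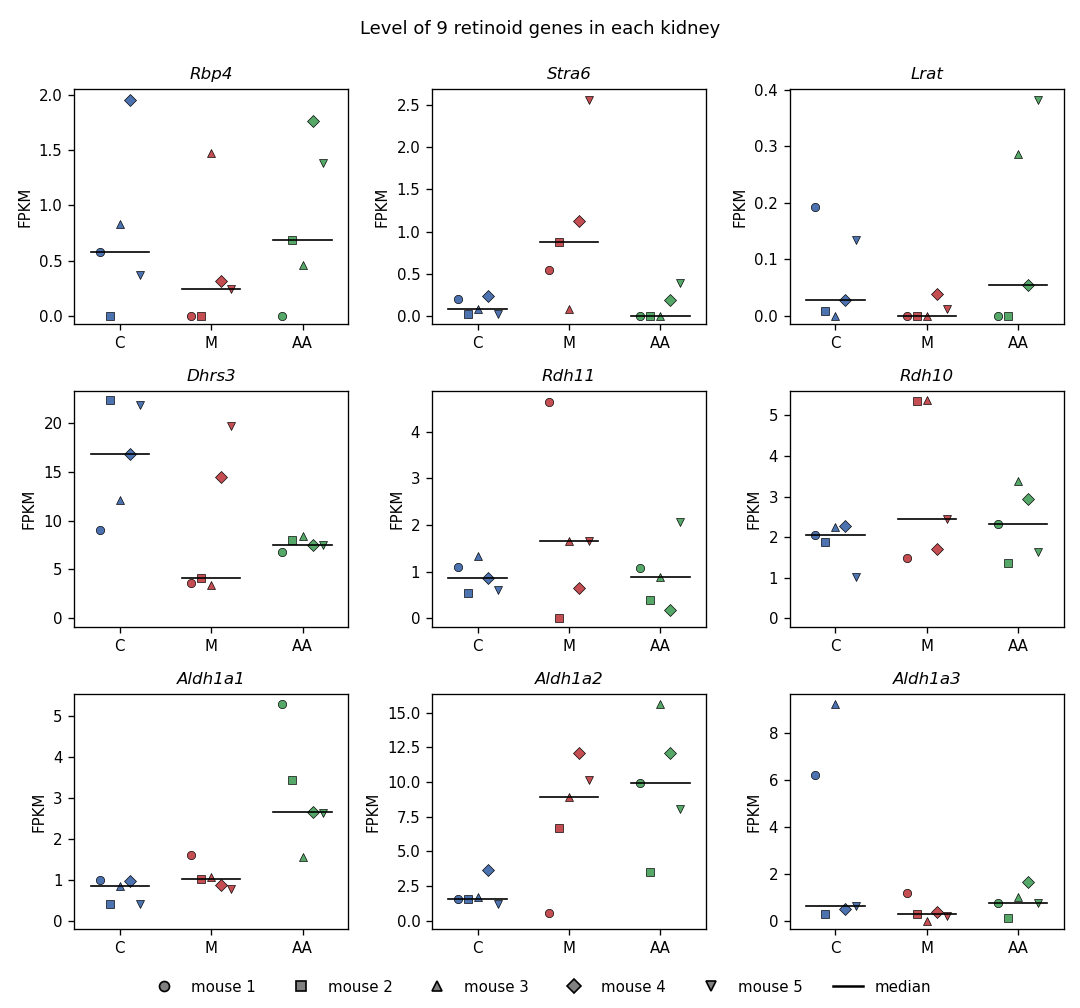
FPKM (y axis, linear, a separate scale for each gene) of the 9 genes in the C, M and AA groups (x axis). Each point is 1 kidney, its shape gives the mouse number and the line is the median of 5 kidneys. Aldh1a1 is higher in all 5 AA kidneys than in any C kidney, Aldh1a2 is high in 4 M and 4 AA kidneys, and the high Aldh1a3 values are those of C mice 1 and 3.

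ALDH1A1 oxidises retinal to retinoic acid and other aldehydes to acids. Its gene (ENSMUSG00000053279, chromosome 19, 20492715 to 20643465, plus strand) overlaps the pseudogene Gm6684 and the transcript C730002L08Rik on the opposite strand, and the library protocol as given does not mark strand. FPKM of Aldh1a1 was 0.991, 0.398, 0.836, 0.976 and 0.412 across C kidneys. Aldh1a1 stood at 1.61, 1.01, 1.06, 0.864 and 0.773 across M kidneys, and at 5.31, 3.44, 1.57, 2.66 and 2.64 across AA kidneys. The AA kidneys lay above the C kidneys without overlap, and AA mouse 3 alone fell within the range of the M kidneys. Mean FPKM of Aldh1a1 was 0.723 ± 0.296 in C, 1.06 ± 0.325 in M and 3.12 ± 1.39 in AA (SD, n = 5 each).

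The log2 fold change of Aldh1a1 in AA vs. C was 1.21 (SE 0.25, limma adjusted p = 0.00389), a 2.32-fold rise on this scale. Its adjusted p stayed at or under 0.05 in all 10 fits that each left out 1 library. Under TPM, which gives all libraries an equal total with mitochondrial genes included, the log2 change was 0.68 and the adjusted p 0.151, and with mitochondrial genes left out of the total it was 1.85 and 0.00884. Summed FPKM of 5 tubular injury markers was 2.56 to 8.43 in C, 9.28 to 23.8 in M and 17.8 to 33.7 in AA kidneys. The sum of 6 fibroblast and myofibroblast markers was 58.8 to 131 in C, 113 to 363 in M and 235 to 400 in AA kidneys. All 11 were above 0 in at least 1 kidney of each group, and their part in the Aldh1a1 values was not tested. For AA vs. M the log2 fold change was 0.95 (SE 0.30, limma adjusted p = 0.0440), past the p threshold but under the fold threshold. Aldh1a1 was the 1 gene of the 9 with an adjusted p of at most 0.05 in AA vs. M, where 17.8% of all genes tested had one. Its adjusted p held at or under 0.05 in 1 of 10 fits that left out 1 library, and when M mice 1 to 3 were left out the log2 change was 1.12, at an adjusted p of 0.0843. In M vs. C the log2 change was 0.26 (95% interval −0.26 to 0.79, limma adjusted p = 0.602).

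Aldh1a7, a close paralog that lies next to Aldh1a1, shares 13.8% of its 31-base words with Aldh1a1, and Aldh1a1 shares 5.70% of its own with Aldh1a7, so a minor part of the reads could be exchanged. FPKM of Aldh1a7 was 0.904, 1.01, 0.969, 1.60 and 1.59 across C kidneys. Across AA kidneys it was 2.49, 2.20, 0.226, 1.15 and 1.71. The 2 groups overlapped. The log2 change of Aldh1a7 in AA vs. C was 0.13 (SE 0.28, limma adjusted p = 0.734).

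ALDH1A2 is the main retinoic acid-producing enzyme of the embryo and of mesenchymal and mesothelial cells. Its gene (ENSMUSG00000013584, chromosome 9, 71215789 to 71296243, plus strand) overlaps Gm48124 on the opposite strand. FPKM of Aldh1a2 was 1.54, 1.58, 1.68, 3.65 and 1.20 across C kidneys. Aldh1a2 stood at 0.571, 6.68, 8.94, 12.1 and 10.2 across M kidneys, and at 9.96, 3.48, 15.6, 12.1 and 8.06 across AA kidneys. Among M kidneys, 4 lay above every C kidney and that of mouse 1 lay below every C kidney. Among AA kidneys, 4 lay above every C kidney and that of mouse 2 lay just under C mouse 4.

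The log2 fold change of Aldh1a2 in AA vs. C was 1.81 (SE 0.34, limma adjusted p = 0.00240), a 3.52-fold rise on this scale. Its adjusted p stayed at or under 0.05 in all 10 fits that each left out 1 library. Under TPM scaling the log2 change was 1.07 with an adjusted p of 0.101, and under TPM without mitochondrial genes 2.14 and 0.00578. The log2 changes of Aldh1a2 in the other 2 comparisons are on the log2(FPKM + 1) scale. In M vs. C it was 1.32 (SE 0.51, limma adjusted p = 0.227), not called. Without M mouse 1 it was 1.86 (limma adjusted p = 0.0375) and was called, the 1 of 10 fits leaving out 1 library with an adjusted p of at most 0.05. With M mice 4 and 5 alone it was 2.10 (limma adjusted p = 0.0692) and with M mice 1 to 3 alone 0.80 (limma adjusted p = 0.275), neither called. In AA vs. M the log2 change was 0.49 (95% interval −0.68 to 1.67, limma adjusted p = 0.577), and it was −0.28 when M mice 1 to 3 were left out. Summed FPKM of 6 fibroblast and myofibroblast markers was 58.8 to 131 in C, 113 to 363 in M and 235 to 400 in AA, and that of 3 mesothelium and capsule markers was 0.390 to 20.4, 0 to 1.77 and 0.415 to 2.22. Summed FPKM of 6 macrophage markers was 16.5 to 97.6 in C, 132 to 390 in M and 93.0 to 141 in AA, and that of 5 tubular injury markers was 2.56 to 8.43, 9.28 to 23.8 and 17.8 to 33.7. All of these markers were above 0 in at least 1 kidney of each group, and their part in the Aldh1a2 values was not tested.

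The promoter sequences of the 2 called genes and of Aldh1a7 are shown because Aldh1a1 and Aldh1a2 both rose in AA vs. C. They are from RefSeq on GRCm38.p6, where 7 of the 9 genes matched an entry, and run 5′ to 3′ on the gene's strand from 110 to 11 bases before an annotated start. Capitals mark CCAAT, the core of the CCAAT box, and ATGCAAAT, the octamer bound by POU domain factors.
Aldh1a1, plus strand, chr19:20601858-20601957: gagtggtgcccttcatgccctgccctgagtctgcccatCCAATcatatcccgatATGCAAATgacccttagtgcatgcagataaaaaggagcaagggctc
Aldh1a7, minus strand, chr19:20727567-20727666: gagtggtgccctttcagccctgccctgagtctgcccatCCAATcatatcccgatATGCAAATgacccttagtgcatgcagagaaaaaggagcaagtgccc
Aldh1a2, plus strand, chr9:71215679-71215778: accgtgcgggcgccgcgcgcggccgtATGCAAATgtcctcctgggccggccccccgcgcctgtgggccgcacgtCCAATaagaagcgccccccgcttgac
The Aldh1a1 window lies before the downstream one of 2 annotated starts, within an intron of the longer transcript, and the other 2 windows lie outside annotated genes. The Aldh1a1 and Aldh1a7 windows have the same base at 94 of 100 positions and share an unbroken run of 65 bases that holds both motifs, with CCAAT beginning 72 and the octamer 56 bases before the start. The window before the upstream start of Aldh1a1 held neither motif. In the Aldh1a2 window the octamer begins 84 and CCAAT 36 bases before the start. Both strands were searched and the motifs do not overlap each other. Of 32851 promoter windows of this length and place, 0.703% held the octamer and 19.2% held CCAAT. The latter motif was also in 1 window each of Stra6, Lrat, Dhrs3 and Rdh11, which were not called in AA vs. C. The nuclear receptor hexamer AGGTCA was in 5.92% of all windows and in none of the 15 windows of the 7 genes that have one, which says only that these letters are not there. The motifs were chosen after the sequences had been seen. A match is a description and not a binding site, and Aldh1a7, which holds both motifs, was not called in AA vs. C.

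ALDH1A3, the remaining enzyme of this step, is known from the ureteric bud and the epithelia that derive from it. Its gene (ENSMUSG00000015134) lies on chromosome 7, 66390890 to 66427517, minus strand, and 2.26% of its 31-base words occur in other genes. FPKM of Aldh1a3 was 6.21, 0.275, 9.20, 0.474 and 0.621 across C kidneys. Aldh1a3 stood at 1.16, 0.290, 0, 0.347 and 0.187 across M kidneys, and at 0.763, 0.0961, 1.01, 1.66 and 0.753 across AA kidneys. C mice 1 and 3 were far above all other kidneys, and the other 3 C kidneys overlapped both groups. The log2 change in M vs. C was −1.13 (SE 0.56, limma adjusted p = 0.337), and with only C mice 2, 4 and 5 it was −0.10 (limma adjusted p = 0.914). In AA vs. C it was −0.73 (SE 0.56, limma adjusted p = 0.324), and with only C mice 2, 4 and 5 it was 0.30 (limma adjusted p = 0.435). The principal cell markers given above were likewise highest in C mice 1 and 3. Among the other C mice, mouse 2 had the lowest Aldh1a3 level (0.275) and the highest principal cell sum (73.1). Summed FPKM of the 3 mesothelium and capsule markers was 6.99 and 20.4 in C mice 1 and 3 and 0.390 to 3.06 in the other C mice. For 3 urothelium markers it was 4.58 and 19.9 in C mice 1 and 3 and 0.974 to 15.7 in the others. The proximal tubule sum was 3182 and 3408 in C mice 1 and 3 and 6407 to 13369 in the others. The part of these marker sets in the Aldh1a3 values was not tested.

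Within each kidney the summed FPKM of the 3 retinal dehydrogenases was 2.23 to 11.7 in C, 3.33 to 13.3 in M and 7.01 to 18.2 in AA. Aldh1a2 held 53.8% to 71.6% of the sum in C mice 2, 4 and 5 and 17.6% and 14.3% in C mice 1 and 3, where Aldh1a3 held 71.0% and 78.6%. In M mice 2 to 5 Aldh1a2 held 83.7% to 91.4%, and in M mouse 1 it held 17.1%. In the AA group Aldh1a2 held 49.6% to 85.8% and Aldh1a1 held 8.61% to 49.0%. A share within a library does not depend on how that library was scaled. These shares are a description, with no test, and the groups overlapped in all 3.

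**Figure D2:**
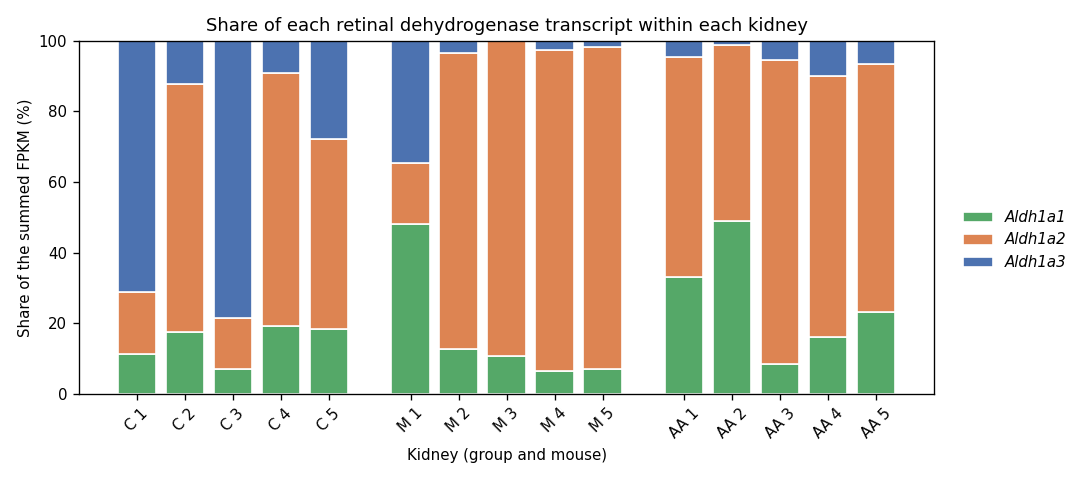
Share (y axis, percent) of Aldh1a1, Aldh1a2 and Aldh1a3 in their summed FPKM in each of the 15 kidneys (x axis, group and mouse number), with no error bars because each bar is 1 kidney. Aldh1a2 holds most of the sum in M mice 2 to 5, at 83.7% to 91.4%, and Aldh1a3 most of it in C mice 1 and 3, at 71.0% and 78.6%.

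DHRS3 reduces retinal to retinol and so limits the supply of retinal for retinoic acid synthesis, and its gene is itself induced by retinoic acid. Dhrs3 (ENSMUSG00000066026, chromosome 4, 144892827 to 144928209, plus strand) had the highest level of the 9 genes in every C kidney. FPKM of Dhrs3 was 9.06, 22.3, 12.1, 16.8 and 21.8 across C kidneys. Dhrs3 stood at 3.65, 4.12, 3.35, 14.4 and 19.7 across M kidneys, and at 6.80, 7.99, 8.42, 7.50 and 7.49 across AA kidneys. The AA kidneys were close together and all lay below the C kidneys. The M kidneys split, with mice 1 to 3 below every other kidney and mice 4 and 5 within the C range.

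The log2 fold change of Dhrs3 in AA vs. C was −0.94 (SE 0.25, limma adjusted p = 0.0138), past the p threshold and just under the fold threshold. With Aldh1a1 and Aldh1a2 it made 3 of the 9 genes with an adjusted p of at most 0.05 in AA vs. C, where 35.9% of all genes tested had one. Aldh1a1 and Dhrs3 were the 2 genes of the 9 whose C and AA kidneys did not overlap, as for 24.0% of all genes tested. The adjusted p stayed at or under 0.05 in all 10 fits that each left out 1 library but was 0.0977 when all 15 libraries shared one fit, where the log2 change was again −0.94. The fold threshold was passed as well without C mouse 1 (−1.12), without C mouse 3 (−1.03), under TPM (−2.01) and under TPM without mitochondrial genes (−1.11). In M vs. C the log2 change was −1.05 (SE 0.48, limma adjusted p = 0.294). With M mice 1 to 3 alone it was −1.82 (limma adjusted p = 0.00575), and with M mice 4 and 5 alone it was 0.11 (limma adjusted p = 0.955). Between AA and M it was 0.11 (SE 0.44, limma adjusted p = 0.900), with opposite signs against M mice 1 to 3 alone (0.88, limma adjusted p = 0.0264) and M mice 4 and 5 alone (−1.05, limma adjusted p = 0.0452). The direction in AA vs. M thus depended on which M kidneys were used. For 0 of the 9 genes were the M and C kidneys, or the AA and M kidneys, without overlap, as they were for 4.72% and 13.2% of all genes tested.

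**Figure D3:**
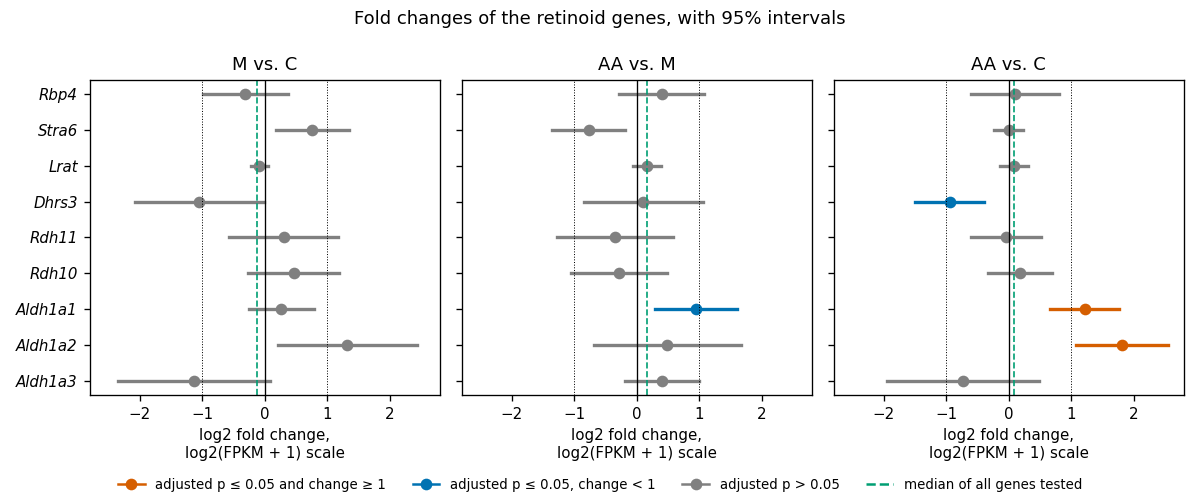
Log2 fold changes (x axis, log2(FPKM + 1) scale) of the 9 genes (y axis) for the comparisons M vs. C, AA vs. M, AA vs. C, as limma estimates with 95% intervals. Dotted lines mark the fold threshold of 1 and the dashed line the median of all genes tested. Aldh1a1 at 1.21 and Aldh1a2 at 1.81 in AA vs. C are the called genes.

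RDH10 oxidises retinol to retinal, the step that limits retinoic acid synthesis in the embryo. Rdh10 (ENSMUSG00000025921, chromosome 1, 16105774 to 16133734, plus strand) was above 0 in all 15 kidneys. FPKM of Rdh10 was 2.04, 1.88, 2.24, 2.28 and 1.01 across C kidneys. Rdh10 stood at 1.49, 5.36, 5.38, 1.70 and 2.45 across M kidneys, and at 2.31, 1.36, 3.38, 2.94 and 1.63 across AA kidneys. All 3 groups overlapped. The log2 change was 0.47 in M vs. C (95% interval −0.27 to 1.20), −0.28 in AA vs. M (−1.05 to 0.48) and 0.18 in AA vs. C (−0.33 to 0.70), with limma adjusted p = 0.517, 0.628 and 0.560. Changes of more than 1.20 in either direction lay outside all 3 intervals. The ratio of Dhrs3 to Rdh10, which act in opposite directions, was 4.44 to 21.5 in C kidneys, 0.622 to 8.46 in M kidneys and 2.49 to 5.88 in AA kidneys. The lowest ratios were those of M mice 2 and 3, and the ratio is a description with no test.

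RDH11 is a microsomal reductase of retinal. Rdh11 (ENSMUSG00000066441, chromosome 12, 79174337 to 79192293, minus strand) shares 0.406% of its words with other genes. FPKM of Rdh11 was 1.11, 0.547, 1.33, 0.855 and 0.605 across C kidneys. Rdh11 stood at 4.64, 0, 1.66, 0.641 and 1.66 across M kidneys, and at 1.08, 0.385, 0.887, 0.169 and 2.07 across AA kidneys. The M kidneys held both the highest value of all, in mouse 1, and a kidney listed at 0, in mouse 2. The log2 change was 0.31 in M vs. C (SE 0.40), −0.35 in AA vs. M (SE 0.43) and −0.04 in AA vs. C (SE 0.26), with limma adjusted p = 0.716, 0.621 and 0.908.

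STRA6 is the membrane receptor that takes up retinol from RBP4. Stra6 (ENSMUSG00000032327, chromosome 9, 58063788 to 58153996, plus strand) overlaps Ccdc33 on the opposite strand and Gm16131 on its own, so its reads could not be told apart from theirs with certainty. FPKM of Stra6 was 0.203, 0.0171, 0.0801, 0.238 and 0.0205 across C kidneys. Stra6 stood at 0.547, 0.870, 0.0758, 1.13 and 2.57 across M kidneys, and at 0, 0, 0, 0.183 and 0.394 across AA kidneys. In M, 4 kidneys lay above every C kidney and every AA kidney, and M mouse 3 lay among them. Behind these values were 4 to 47 reads for C, 6 to 467 for M and 0 to 37 for AA kidneys.

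The log2 change of Stra6 in M vs. C was 0.76 (SE 0.27, limma adjusted p = 0.189) and in AA vs. M −0.77 (SE 0.27, limma adjusted p = 0.0682), so neither was called. The AA vs. M change was called with M mice 4 and 5 alone (−1.32, limma adjusted p = 0.0128), under centring on the library median (−1.28, adjusted p = 0.00544), under quantile normalization (−1.03, adjusted p = 0.00554) and by voom (−5.18 on its own scale, adjusted p = 0.00820). With M mice 1 to 3 alone it was −0.40 (limma adjusted p = 0.164). In M vs. C it was called under centring (1.13, adjusted p = 0.0270). In AA vs. C the change was 0.00 (95% interval −0.24 to 0.23, limma adjusted p = 0.982). At such low levels the added 1 pulls changes toward 0 and narrows the interval. With 0.01 added in place of 1 the AA vs. C change was −1.13 (limma adjusted p = 0.518), and by voom −0.996 (adjusted p = 0.580).

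RBP4 is made chiefly in the liver, and the kidney holds much of the protein through uptake. Rbp4 (ENSMUSG00000024990, chromosome 19, 38116629 to 38125281, minus strand) had a mean FPKM under 1 in each group. FPKM of Rbp4 was 0.576, 0, 0.836, 1.96 and 0.369 across C kidneys. Rbp4 stood at 0, 0, 1.48, 0.315 and 0.247 across M kidneys, and at 0, 0.684, 0.462, 1.76 and 1.39 across AA kidneys. The groups overlapped, and each held at least 1 kidney listed at 0. The log2 change was −0.31 in M vs. C (SE 0.32), 0.40 in AA vs. M (SE 0.32) and 0.09 in AA vs. C (SE 0.32), with limma adjusted p = 0.645, 0.418 and 0.837. At most 89 reads lay behind any of these values.

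LRAT esterifies retinol for storage, mainly in liver stellate cells. Lrat (ENSMUSG00000028003, chromosome 3, 82892579 to 82903973, minus strand) overlaps Rbm46os on the opposite strand and had the lowest mean level of the 9 genes in the C and M groups. FPKM of Lrat was 0.192, 0.00930, 0, 0.0276 and 0.134 across C kidneys. Lrat stood at 0, 0, 0, 0.0382 and 0.0120 across M kidneys, and at 0, 0, 0.286, 0.0545 and 0.383 across AA kidneys. No more than 33 reads were recovered in any kidney, and the 6 kidneys listed at 0 allow up to 0.00844 to 0.0622 FPKM, the worth of 3 reads, for counting error only. The log2 change of Lrat was −0.08 in M vs. C (SE 0.06), 0.17 in AA vs. M (SE 0.10) and 0.08 in AA vs. C (SE 0.11), with limma adjusted p = 0.524, 0.285 and 0.554.

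Levels of the 9 genes can be ordered, since FPKM is per length. In the C group the mean was highest for Dhrs3 (16.4 ± 5.85), followed by Aldh1a3, Aldh1a2 (1.93 ± 0.980), Rdh10 (1.89 ± 0.517), Rdh11, Rbp4, Aldh1a1, Stra6 and Lrat (SD, n = 5), and the ranges of neighbours overlapped except for Aldh1a1 and Stra6. In the M group the order was Dhrs3 (9.05 ± 7.56), Aldh1a2 (7.69 ± 4.43), Rdh10, Rdh11, Aldh1a1, Stra6, Rbp4, Aldh1a3 and Lrat, with overlapping ranges between all neighbours. In the AA group Aldh1a2 (9.84 ± 4.53) stood above Dhrs3 (7.64 ± 0.610) with overlapping ranges, followed by Aldh1a1, Rdh10 (2.32 ± 0.854), Rdh11, Rbp4, Aldh1a3, Lrat and Stra6. By mean level Aldh1a1 thus stood in the seventh place in C, the fifth in M and the third in AA. Between C and M it passed Aldh1a3 and Rbp4, whose means were lower in M, and its own change was not called (limma adjusted p = 0.602). The place of Aldh1a3 in C rests on C mice 1 and 3, at 6.21 and 9.20 FPKM, with 0.275 to 0.621 in the other C mice. In the AA group the ranges of neighbours overlapped except for Dhrs3 and Aldh1a1.

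Among 6306 genes above 0 in every kidney with a mean FPKM of at least 1, the genes most like each of the 4 members present in all 15 kidneys were found by Spearman correlation of log2(FPKM + 1). Hdac5 and Eif4g3 were most like Dhrs3, each with rho of 0.98. Ptpn11 (rho 0.93) and Smarcc1 (0.92) were most like Aldh1a1. Tnfsf13b (0.88) and Sh3pxd2a (0.85) were most like Aldh1a2, and Rpl39-ps (0.83) and Lrrc57 (0.81) were most like Rdh10. These values describe 15 libraries that share groups, depth and scaling.

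Of 37 other genes of vitamin A handling, 29 were tested in M vs. C, and 0 were called higher and 2 lower (6.90% called, beside 1.38% of all genes). Their median log2 change with all M mice was −0.48, beside −0.12 over all genes. Of the 29, 24 were below 0, and the count over all genes is not given here. With M mice 4 and 5 alone single genes moved both ways, as for Dgat1 (−0.06 in place of −0.88) and Retsat (−1.80 in place of −1.34). Aldh8a1, an aldehyde dehydrogenase that oxidises 9-cis-retinal in vitro and belongs to kynurenine breakdown, fell from 14.1 ± 7.66 to 2.22 ± 1.28 FPKM (SD, n = 5 each), a log2 change of −2.17 (SE 0.42, limma adjusted p = 0.0293). Lrp2, or megalin, through which the proximal tubule takes up filtered RBP4, stood at 3.61, 23.6, 5.48, 5.25 and 7.36 FPKM across C kidneys and at 1.49, 0, 0.582, 1.24 and 2.19 across M kidneys. Its log2 change was −2.08 (SE 0.46, limma adjusted p = 0.0440). Both groups lay apart without overlap for these 2 genes, as for 4.72% of all genes tested. Their adjusted p held at or under 0.05 in 4 of 10 fits that left out 1 library for Aldh8a1 and in 2 of 10 for Lrp2. With M mice 4 and 5 alone the log2 change was −1.81 for Aldh8a1 (limma adjusted p = 0.178) and −1.63 for Lrp2 (limma adjusted p = 0.287), and neither was called. Retsat, which saturates retinol to dihydroretinol, came next by unadjusted p, with a log2 change of −1.34 (SE 0.38, limma adjusted p = 0.106). The fall of proximal tubule markers, a list that itself holds Lrp2, stands beside these values, and its part in them was not tested.

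Between AA and M, 24 of the 37 genes were tested, 1 was called higher and 1 lower (8.33% called, beside 12.8% of all genes), with a median of 0.24 beside 0.17 over all genes. Adh4, an alcohol dehydrogenase that oxidises retinol, stood at 0, 0, 0.508, 0.611 and 1.26 FPKM across M kidneys and at 2.89, 4.36, 3.63, 2.88 and 2.78 across AA kidneys. The groups did not overlap, the log2 change was 1.60 (SE 0.31, limma adjusted p = 0.00495), and it stayed at or under an adjusted p of 0.05 in all 10 fits that left out 1 library. With M mice 4 and 5 alone the log2 change of Adh4 was 1.16 (limma adjusted p = 0.0410). Dgat1, an acyltransferase of triglyceride synthesis that can also esterify retinol, stood at 1.64, 1.38, 1.06, 4.18 and 6.13 FPKM across M kidneys and at 0, 0, 0.153, 1.16 and 0.447 across AA kidneys. Its log2 change was −1.41 (SE 0.39, limma adjusted p = 0.0235), with an adjusted p of at most 0.05 in 7 of 10 such fits, and with M mice 4 and 5 alone it was −2.23 (limma adjusted p = 0.00796). Rdh16, a retinol dehydrogenase, came next by unadjusted p, with FPKM of 0, 0, 0, 1.05 and 1.38 in M mice and 1.16 to 1.84 in AA mice, and was not called (log2 change 0.84, SE 0.31, limma adjusted p = 0.0783). The 3 kidneys listed at 0 were those of M mice 1 to 3, and with M mice 4 and 5 alone the log2 change of Rdh16 was 0.15 (limma adjusted p = 0.752).

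In AA vs. C, 29 of the 37 genes were tested, 1 was called higher and 6 lower (24.1% called, beside 19.8% called and 10.2% called as higher over all genes), with a median of −0.28 beside 0.09 over all genes. Adh4 was the called gene that rose, from 0 to 0.794 FPKM in C mice to 2.78 to 4.36 in AA mice, a log2 change of 1.72 (SE 0.22, limma adjusted p = 0.000363). Dgat1 fell by 2.29 on the log2 scale (SE 0.28, limma adjusted p = 0.000304), from 3.87 to 8.99 FPKM in C mice. Rdh5, the 11-cis-retinol dehydrogenase, fell from 0.986 to 4.22 FPKM in C mice to 0 to 0.158 in AA mice, a log2 change of −1.49 (SE 0.25, limma adjusted p = 0.00146). Aldh8a1 (−1.87, limma adjusted p = 0.00184), Retsat (−1.30, limma adjusted p = 0.00800) and Lrp2 (−1.29, limma adjusted p = 0.0258) were lower as well. Crabp2, which carries retinoic acid to its receptors, was listed at 0 in all 5 AA kidneys. It stood at 2.73, 0.339, 3.43, 0.715 and 0.543 FPKM across C kidneys and at 0, 0, 0, 0.103 and 0.388 across M kidneys. Crabp2 was called in AA vs. C (limma adjusted p = 0.0117). Its high values were those of C mice 1 and 3. With only C mice 2, 4 and 5 its log2 change was −0.61 (limma adjusted p = 0.00315) in place of −1.17, under the fold threshold. In M vs. C the log2 change of Crabp2 was −1.05 (SE 0.33, limma adjusted p = 0.147). With only C mice 2, 4 and 5 the M vs. C change was −0.49 (limma adjusted p = 0.224), and neither was called.

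**Figure D4:**
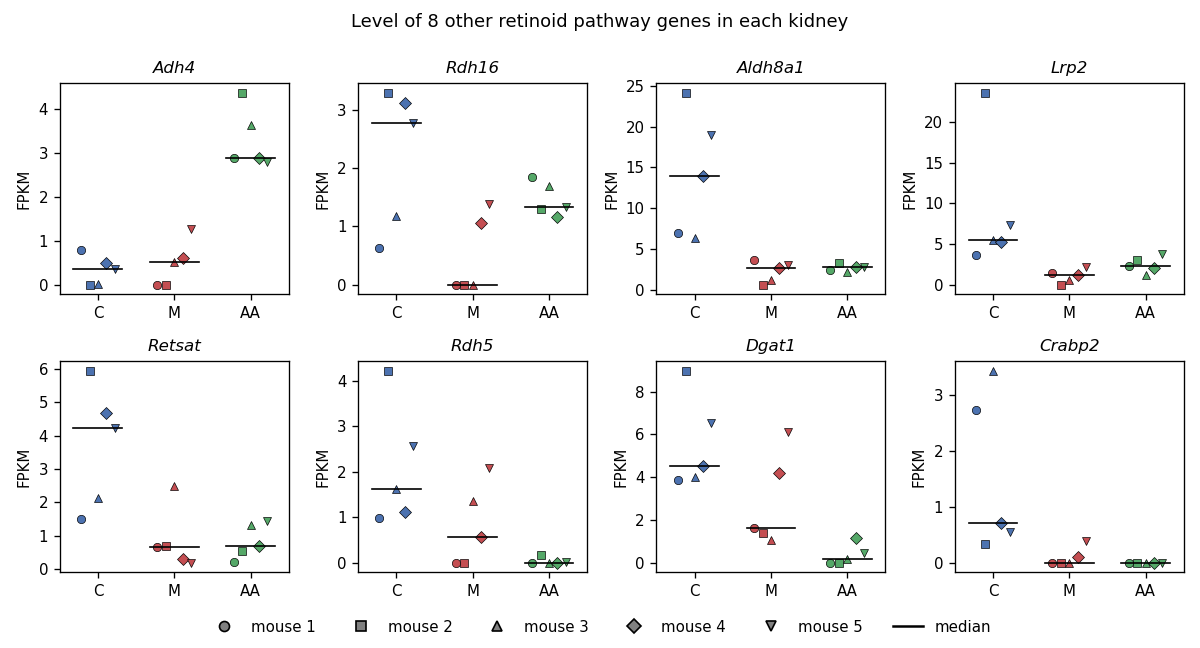
FPKM (y axis, linear, a separate scale for each gene) of 8 other retinoid pathway genes in the C, M and AA groups (x axis). Each point is 1 kidney, its shape gives the mouse number and the line is the median of 5 kidneys. Adh4 is higher in all 5 AA kidneys, at 2.78 to 4.36, than in any C or M kidney. Crabp2 is at 0 in all 5 AA kidneys and at 0 to 0.388 in M kidneys.

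Of 11 genes known to be induced by retinoic acid, 9 could be tested in M vs. C, 9 in AA vs. C and 7 in AA vs. M. By limma 0 were called in M vs. C, where 3 had an unadjusted p under 0.05 and voom called 0, and 0 were called in AA vs. M, where 1 had an unadjusted p under 0.05 and voom called 1, Stra6. In AA vs. C 1 was called, Crabp2, as lower, and it lost the call with only C mice 2, 4 and 5. The share called of the genes tested was 0% in M vs. C, 0% in AA vs. M and 11.1% in AA vs. C. Over all genes tested it was 1.38%, 12.8% and 19.8%. The medians were −0.04, 0.12 and 0.08, beside −0.12, 0.17 and 0.09 over all genes. Dhrs3, Stra6, Lrat and Crabp2 belong both to these 11 genes and to those named above.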

How the data were processed

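The authors trimmed reads with fastp, aligned them to mm10 with HISAT2 2.0.5, counted them with featureCounts 1.5.0-p3 and deposited FPKM (fragments relative to exon length and library size) for 15 libraries, as the submitters' notes and methods say. The annotation release is not given in the sources used here. GENCODE M21 supplied symbols, positions and exon lengths, and lacked 37 genes of the table. Groups and mouse numbers came from the labels. The nearest pair of libraries of a group differed by a chi-square of 20.7 per degree of freedom, so none was counted as a duplicate.

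log2(FPKM + 1) was compared with limma 3.58.1 in R 4.3.3 (lmFit, eBayes with an intensity trend), with the 10 libraries of a comparison in the fit and Benjamini-Hochberg adjustment over all genes above 0 in at least 5 of them. In simulated reads with a log2 change of 2 put into 200 genes, limma called 140 of them for M vs. C, 164 for AA vs. M and 140 for AA vs. C. False calls were 0, 1 and 2, and 0 each where no change was put in. The changed genes were among those with more reads, and the simulation had one spread for all genes and no error of scaling. Missed changes of low genes were thus not measured. Whole reads, to within 0.05, were recovered from 97.5% to 98.9% of low FPKM values, and limits from them cover counting error only. Deposited FPKM had been divided by a total that differed from the summed reads. The factors were 1.41 to 2.30 for C, 0.647 to 1.57 for M and 0.518 to 1.48 for AA libraries, so the scaling differed between groups. TPM was one of the alternatives for that reason. Words of 31 bases measured sequence shared between genes. Python 3.11.15, numpy 2.4.6, pandas 2.3.3 and matplotlib 3.10.9 were used.

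The 9 genes and the lists were chosen with earlier results of these data known. Named besides the 9 were other pathway genes that were called or had one of the 3 smallest unadjusted p of a comparison, called retinoic acid-induced genes, the 2 genes most like each member above 0 in all 15 libraries, and Aldh1a7 as a paralog. Alternatives were pseudocounts of 0.1 and 0.01, no filter, a mean FPKM of at least 1, TPM with and without mitochondrial genes, quantile normalization, median centring, library quality weights, one fit of all 15 libraries, no intensity trend, a replicate block, each library left out, and M mice 4 and 5 or 1 to 3 alone. Limma voom on recovered reads and C mice 2, 4 and 5 alone were chosen after seeing the data.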

Additional observations from a re-analysis of the deposited data

Results flagged for a closer look

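In 2 of 27 groups of 5 kidneys, 1 kidney lay further from the others than Dixon's ratio allows at its critical value of 0.71, and chance flags about 1 group in 20. Rbp4 in M mouse 3 was 1.48 FPKM, with 0 to 0.315 in the other M mice (ratio 0.786). Aldh1a2 in C mouse 4 was 3.65 FPKM, with 1.20 to 1.68 in the other C mice (ratio 0.807). Summed macrophage markers were 97.6 FPKM in that kidney and 16.5 to 28.0 in the other C kidneys. Lymphocyte markers summed to 14.1 there and 0.646 to 1.59 in the others, and adipocyte markers to 15.8 and 0.144 to 3.82. That kidney was also the highest of the C group for fibroblast (131) and tubular injury (8.43) sums. The other marker sets were highest in another C kidney. The part of these cell types in its Aldh1a2 value was not tested.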

How the results depend on the processing

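The number of the 9 genes called in AA vs. C was 2, and it was 1 under TPM, where Aldh1a1 and Aldh1a2 lost their calls and Dhrs3 gained one. It stayed at 2 or 3 under the other alternatives, the third gene again being Dhrs3, and at 2 to 3 with each library left out. In M vs. C it was 0, and 1 under median centring (Stra6) and with M mice 1 to 3 alone (Dhrs3), and 0 to 1 with each library left out. In AA vs. M it was 0, and 1 under a pseudocount of 0.1 (Aldh1a1), quantile normalization and median centring (Stra6), 2 with M mice 4 and 5 alone (Stra6 and Dhrs3) and 2 by voom, and 0 to 1 with each library left out. A mean FPKM of at least 1 left 5 of the 9 genes to test in each comparison. Of 663 log2 changes of single genes under alternatives, 593 kept their direction and call, 18 gained a call, 2 lost one and 50 changed sign.

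The changes of sign were as follows, in log2 units. Under TPM they were in M vs. C Rdh11 (−0.30), Rdh10 (−0.29) and Aldh1a1 (−0.28), in AA vs. M Dhrs3 (−0.0065), and in AA vs. C Rbp4 (−0.36) and Rdh10 (−0.61). TPM without mitochondrial genes turned Dhrs3 in AA vs. M (−0.021). Median centring turned Rbp4 (0.056) and Lrat (0.28) in M vs. C, Rbp4 (−0.12), Lrat (−0.35), Dhrs3 (−0.41), Aldh1a2 (−0.022) and Aldh1a3 (−0.11) in AA vs. M, and Rbp4 (−0.060) and Lrat (−0.070) in AA vs. C. Quantile normalization turned Lrat in M vs. C (0.056) and Lrat (−0.047) and Dhrs3 (−0.20) in AA vs. M. A pseudocount of 0.01 turned Rdh11 in M vs. C (−0.48) and AA vs. M (0.15), and voom turned Rdh11 in M vs. C (−0.018) and Dhrs3 in AA vs. M (−0.24). Quality weights turned Dhrs3 (−0.53) and Rdh10 (0.091) in AA vs. M and Stra6 (0.054) in AA vs. C. M mice 4 and 5 alone turned Dhrs3 in M vs. C (0.11) and Dhrs3 (−1.05), Rdh10 (0.083) and Aldh1a2 (−0.28) in AA vs. M. C mice 2, 4 and 5 alone turned Stra6 (0.024), Rdh11 (0.12) and Aldh1a3 (0.30) in AA vs. C. With each library left out, the changes ran from −0.016 to 0.61 for Rdh11 in M vs. C, from −0.12 to 0.45 for Dhrs3 and −0.049 to 0.78 for Aldh1a2 in AA vs. M, and in AA vs. C from −0.083 to 0.31 for Rbp4, −0.087 to 0.037 for Stra6 and −0.23 to 0.12 for Rdh11. The cause was not tested.

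For mice with the same number, deviations from the group means had correlations of −0.13 to 0.22. The labels give no pairing, and such correlations cannot exclude a shared batch. With a replicate block, 0 of the 9 genes were called in M vs. C, 0 in AA vs. M and 2 in AA vs. C, as without it. Over all genes the block gave 152 calls in M vs. C, 2217 in AA vs. M and 4345 in AA vs. C. The count over all genes in M vs. C was 291, and it ran from 1 to 3094 over the alternatives, with 1609 under TPM, 33 without the filter and 3094 with M mice 1 to 3 alone. In AA vs. M it was 2533, from 422 under TPM to 3972 by voom, and in AA vs. C 4346, from 3495 to 7855. The median over all genes in M vs. C was −0.12, −0.58 under TPM and 0.24 under median centring, and in AA vs. M 0.17, 0.12 and −0.35, so directions of small changes depend on scaling. Changes of Lrat, Rbp4 and Stra6 rest on few reads. The voom and C mice 2, 4 and 5 values were chosen after seeing the data.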
